A study of Homo sapiens with 6 samples.

Results

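The miR-17 to miR-92a cluster is a group of microRNAs (miRNAs) cut from a single primary transcript, that of the non-coding host gene MIR17HG. The 9 arms described here were chosen by name. They are the listed mature products of the hairpins MIR17, MIR18A, MIR19A, MIR20A, MIR19B1 and MIR92A1, and each had 1 spot on the array. They make up 9 of 2019 human miRNA probes. All 9 entered the comparison, as 9 of the 324 probes that were above the blank-spot limit on all 3 arrays of at least 1 group.

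The samples were HuH7 cells, an established human hepatocellular carcinoma line, so every value comes from a single line in culture. The treated cells received 1 µg/ml cisplatin, a platinum drug that crosslinks DNA, for 24 h, and the control cells were kept without it for the same time. Total RNA of 3 cisplatin and 3 control samples was labelled with a single dye and hybridised, 1 array each. The labels do not say whether the samples came from separate cultures. The p-values therefore speak of the spread among these 6 samples alone, part of which may be technical, and precision is limited by how few arrays there are.

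miRNAs of this cluster are processed in the nucleus from the host transcript into hairpins, which Dicer cuts in the cytoplasm into a 5p and a 3p arm. An arm loaded into an Argonaute protein pairs with messenger RNAs mainly through its seed, bases 2 to 8, and lowers their output. The cluster is known as an oncogenic locus: MYC and E2F factors activate it, and its products repress cell cycle inhibitors and pro-apoptotic genes such as CDKN1A and BCL2L11. It is often raised in liver cancer.

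MIR17HG lies at chr13:91347687-91354577 (GRCh38.p14, 6891 bases) and the 6 hairpins occupy 787 bases inside it, on the plus strand. In transcript order they are MIR17 (chr13:91350605-91350688), MIR18A (chr13:91350751-91350821), MIR19A (chr13:91350891-91350972), MIR20A (chr13:91351065-91351135), MIR19B1 (chr13:91351192-91351278) and MIR92A1 (chr13:91351314-91351391). The mature sequences, from RefSeq on the same build, are printed because the seed decides which targets an arm shares with another arm. The seed is in capitals, 5′ to 3′.
miR-17-5p: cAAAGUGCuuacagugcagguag
miR-20a-5p: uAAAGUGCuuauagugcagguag
miR-18a-5p: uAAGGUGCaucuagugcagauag
miR-19a-3p: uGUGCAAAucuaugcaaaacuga
miR-19b-3p: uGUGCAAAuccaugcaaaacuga
miR-92a-3p: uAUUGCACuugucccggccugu
miR-17-3p: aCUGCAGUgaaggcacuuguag
miR-18a-3p: aCUGCCCUaagugcuccuucugg
miR-19b-1-5p: aGUUUUGCagguuugcauccagc
miR-17-5p and miR-20a-5p share a seed, as do miR-19a-3p and miR-19b-3p, and each of the other 5 arms has its own. Counted from 1 at the 5′ end, miR-17-5p differs from miR-20a-5p by C1U and C12U, and miR-19a-3p from miR-19b-3p by U11C only. miR-19b-3p is also made from MIR19B2 and miR-92a-3p from MIR92A2, both on chromosome X, so those spots read the sum of 2 loci. The probe sequences are not used here, and how far near-identical arms shared signal was not tested.

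Some facts of the arrays bear on every value below. The array of replicate 1 was the dimmest for all 9 arms in control samples, and for 8 of 9 in cisplatin samples, where miR-19b-1-5p was equally dim on replicates 1 and 3. The blank-spot limit, set for each array at 2 SD over the mean of its 925 blank spots, lay between 209 and 247 raw units on cisplatin arrays and between 220 and 240 on control arrays. Cisplatin arrays lay at slide positions 4, 2 and 4 and control arrays at positions 3, 1 and 3, so slide position and treatment cannot be told apart. The liver miRNA miR-122-5p had 4337, 4782 and 4901 raw units on cisplatin arrays, against 4739, 5169 and 5093 on control arrays. Its other arm, miR-122-3p, had 280, 319 and 326 against 303, 372 and 354. The other liver markers went the other way in raw signal. miR-192-5p had 1517, 2150 and 2073 against 1322, 1550 and 1634, and miR-194-5p had 1634, 2321 and 2488 against 1343, 1766 and 1955. The 16 blood, endothelial, stromal, muscle and neural markers had 172 to 346 raw units over all arrays, and 4 of these 16 (miR-126-3p, miR-143-3p, miR-145-5p and miR-214-3p) were above the limit on all arrays of at least 1 group.

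The main comparison asked how the level of each arm differed between cisplatin and control cells. All 9 arms had a negative log2 fold change, between -0.40 and -0.16, with a median of -0.26, while the median of all 324 tested probes was -0.012. Negative values made up 52.2% of all tested probes. miR-18a-3p and miR-19b-1-5p entered the fit through the control arrays alone, where they were higher, and such entry favours a negative value. The 7 arms above the limit on all 6 arrays were all negative, with a median of -0.28. The size depended on the scaling: the median of the arms was -0.063 with 75th percentile scaling and -0.088 without normalization between arrays, each with 8 of 9 arms negative. The median of all tested probes was then 0.095 and 0.071. In limma 0 of 9 arms passed an adjusted p of 0.05, as did 0.309% of all tested probes (1 of 324), so none of the values below is a called difference. The smallest adjusted p of an arm was 0.0706 (miR-19b-3p). At an unadjusted limma p under 0.05, 4 of 9 arms were lower after cisplatin (miR-17-3p, miR-19a-3p, miR-19b-3p and miR-92a-3p), against 7.72% of all tested probes. This count also depended on the processing. It was 0 of 9 with 75th percentile scaling, without normalization between arrays and with the authors' deposited values, and 1 with Spike Control scaling. It was 5 with cyclic loess and 6 with the replicate number as a block. Over all tested probes, in either direction, 51 of 324 had an unadjusted limma p under 0.05 in the main fit. That number was 48 with 75th percentile scaling, 33 without normalization between arrays and 26 of 308 with the authors' values. It was 13 of 324 with Spike Control scaling, 46 with cyclic loess and 57 with the replicate block. In total RNA, fewer cells that make the cluster and less of it per cell cannot be told apart.

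Signal is given below as raw foreground per array and as normalized log2 signal, that is, after background correction and quantile normalization. Fold changes are differences of normalized log2 signal, cisplatin minus control, with limma's standard error (SE) and Benjamini-Hochberg adjusted p over all 324 probes. In raw signal the groups overlapped for all 9 arms. After normalization, 4 of 9 arms had all 3 cisplatin arrays below all 3 control arrays (miR-17-3p, miR-19b-3p, miR-19b-1-5p and miR-92a-3p), against 10.2% of all tested probes. Of these arms, miR-19b-1-5p entered the fit through the control arrays alone.

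**Figure D1:**
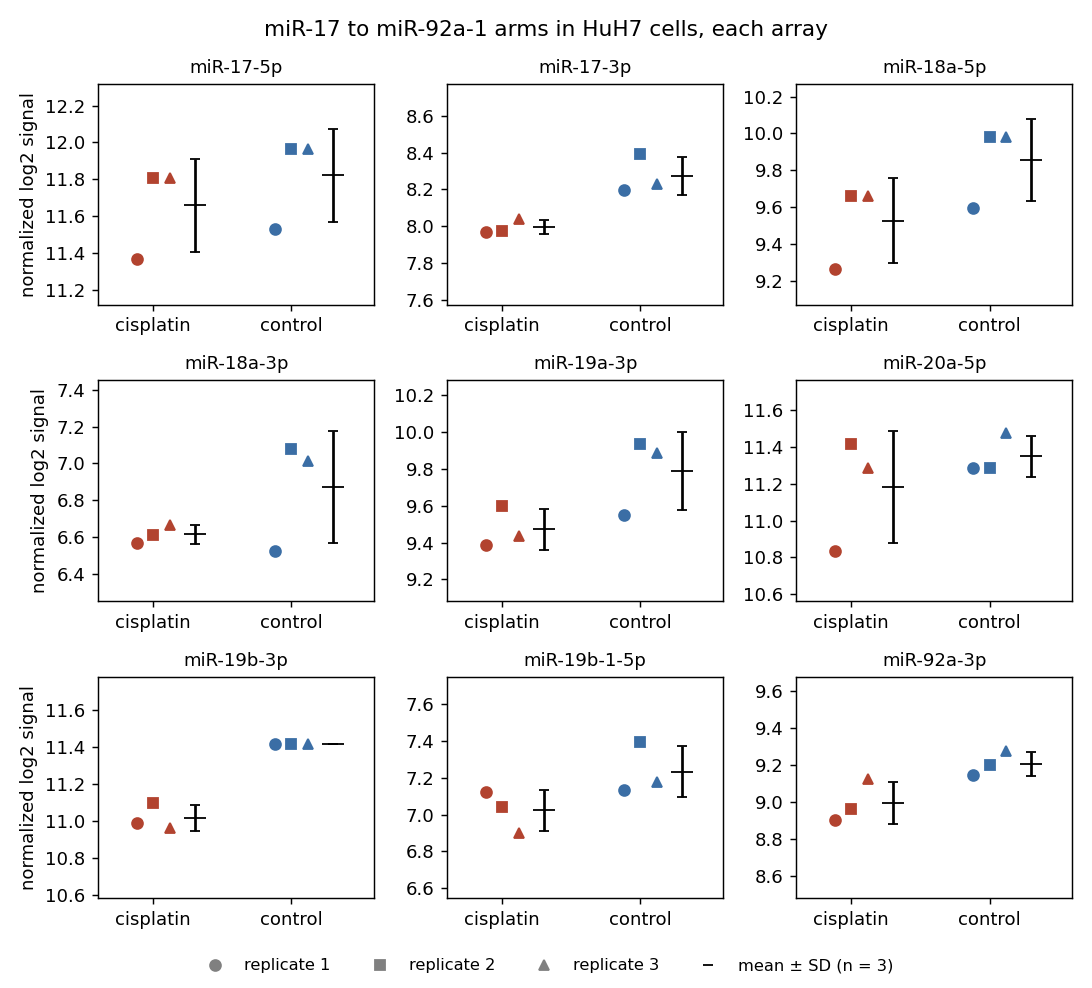
Normalized log2 signal of each of the 9 arms on every array, cisplatin left of control, with the marker shape giving the replicate number and the black bar the mean ± SD (n = 3). Each panel spans the same log2 range, and the cisplatin mean lies below the control mean in all 9 panels.

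miR-17-5p and miR-20a-5p carry the AAAGUGC seed and are known to repress E2F1 and the cell cycle inhibitor CDKN1A. hsa-miR-17-5p had 2351, 4059 and 3631 raw units on cisplatin arrays 1, 2 and 3, against 2523, 4032 and 3846 on control arrays 1, 2 and 3. The first array of each group was low and the others lay close together, so the groups overlapped. Its normalized log2 signal averaged 11.66 ± 0.25 after cisplatin and 11.82 ± 0.25 in control cells (SD, n = 3 each). The log2 fold change was -0.16 (SE 0.18, adjusted p = 0.778 by limma), with a 95% interval of -0.61 to 0.29 that holds 0. Without cisplatin replicate 1 the value was -0.0034. It was -0.31, -0.10 and -0.0995 without control replicate 1, 2 or 3.

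hsa-miR-20a-5p had 1711, 3249 and 3044 raw units on cisplatin arrays, against 1928, 2719 and 3012 on control arrays. Cisplatin replicate 1 was the lowest of all 6 arrays and cisplatin replicate 2 the highest. The normalized log2 signal averaged 11.18 ± 0.30 after cisplatin and 11.35 ± 0.11 in control cells (SD, n = 3 each), a log2 fold change of -0.17 (SE 0.16, 95% interval -0.58 to 0.24, limma adjusted p = 0.746). miR-20a-5p was the arm whose direction depended most on a single array: without cisplatin replicate 1 it stood at 0.0034. It was -0.29 without cisplatin replicate 2 and -0.11 without control replicate 3.

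miR-18a-5p, with the AAGGUGC seed, is known to repress the oestrogen receptor ESR1. hsa-miR-18a-5p had 642, 1034 and 1029 raw units on cisplatin arrays, against 728, 1077 and 1029 on control arrays. The raw values of replicate 3 were equal in both groups, while those of replicates 1 and 2 were lower after cisplatin. Its normalized log2 signal averaged 9.53 ± 0.23 after cisplatin and 9.85 ± 0.22 in control cells (SD, n = 3 each), which gave a log2 fold change of -0.33 (SE 0.16, 95% interval -0.73 to 0.079, limma adjusted p = 0.438). Without cisplatin replicate 1 it was -0.22.

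miR-19a-3p and miR-19b-3p share the GUGCAAA seed and are known as the arms that carry much of the oncogenic activity of the cluster in mouse lymphoma. hsa-miR-19b-3p had 1895, 3080 and 2544 raw units on cisplatin arrays, against 2211, 3082 and 2969 on control arrays. Each cisplatin array was below its same-numbered control array, by only 2 raw units for replicate 2. The normalized log2 signal averaged 11.01 ± 0.072 after cisplatin (SD, n = 3), below the value of 11.42 that all 3 control arrays took. The log2 fold change of -0.40 (SE 0.054, 95% interval -0.54 to -0.27, limma adjusted p = 0.0706) was the lowest of the 9 arms, and only 2 of the 324 tested probes were lower. The probe held a single rank on all 3 control arrays, for which quantile normalization returns identical values, so this SE is too small. With cyclic loess, which does not tie ranks, the log2 fold change was -0.39 with an SE of 0.12 (limma adjusted p = 0.180).

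hsa-miR-19a-3p had 716, 1042 and 899 raw units on cisplatin arrays, against 730, 1053 and 987 on control arrays. Each cisplatin array was again the lower of its pair. Its normalized log2 signal averaged 9.47 ± 0.11 after cisplatin and 9.79 ± 0.21 in control cells (SD, n = 3 each), a log2 fold change of -0.32 (SE 0.12, 95% interval -0.63 to -0.0080, limma adjusted p = 0.310). The 2 arms of the miR-19 seed differ at a single base, and their signals may not be independent.

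miR-92a-3p, with the AUUGCAC seed, is known to repress the pro-apoptotic gene BCL2L11 and, in endothelial cells, the integrin ITGA5. hsa-miR-92a-3p had 534, 674 and 724 raw units on cisplatin arrays, against 576, 715 and 731 on control arrays. All 3 cisplatin arrays were below their same-numbered control arrays. Its normalized log2 signal averaged 8.99 ± 0.12 after cisplatin and 9.21 ± 0.066 in control cells (SD, n = 3 each), without overlap, and the log2 fold change was -0.21 (SE 0.077, 95% interval -0.41 to -0.020, limma adjusted p = 0.276).

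The other 3 listed arms come from the opposite strand of hairpins already described and are the arms usually found at lower abundance. hsa-miR-17-3p had 333, 404 and 403 raw units on cisplatin arrays, against 361, 473 and 409 on control arrays. It was above the blank-spot limit on all 6 arrays, and its log2 fold change was -0.28 (SE 0.068, 95% interval -0.45 to -0.11, limma adjusted p = 0.129). In normalized log2 signal the cisplatin arrays lay close together at 7.97, 7.98 and 8.04, all below the control arrays, which averaged 8.27 ± 0.10 (SD, n = 3).

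miR-18a-3p and miR-19b-1-5p lay near the limit and are the least certain of the 9. hsa-miR-18a-3p had 212, 245 and 239 raw units on cisplatin arrays, against 228, 274 and 269 on control arrays, and was above the limit on 2 of 3 cisplatin and 3 of 3 control arrays. Its log2 fold change was -0.26 (SE 0.16, limma adjusted p = 0.528). hsa-miR-19b-1-5p had 229, 245 and 229 raw units on cisplatin arrays, against 237, 278 and 252 on control arrays, and was likewise above the limit on 2 of 3 cisplatin and 3 of 3 control arrays. Its log2 fold change was -0.21 (SE 0.097, limma adjusted p = 0.377). For both, the cisplatin array below the limit was that of replicate 2. Without background correction the values were -0.11 for miR-18a-3p and -0.097 for miR-19b-1-5p. With plain subtraction they were -0.38 and -0.28 for the same arms. Single arrays moved them too: miR-18a-3p was -0.44 without control replicate 1 and -0.15 without control replicate 2, and miR-19b-1-5p was -0.13 without control replicate 2.

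The same-numbered arrays were also set side by side, since their deviations from the group means went together (correlations of 0.44, 0.24 and 0.20 for numbers 1, 2 and 3). Cisplatin replicate 2 correlated nearly as well with control replicate 3 (0.23), so the pairing of numbers 2 and 3 is uncertain. In normalized signal 7 of 9 arms were lower in the cisplatin array of all 3 pairs, against 20.4% of all tested probes. The exceptions were miR-18a-3p, which was 0.041 higher in pair 1, and miR-20a-5p, which was 0.13 higher in pair 2. The arms that were lower in all 3 pairs include miR-19b-1-5p, which entered the fit through the control arrays alone. The median difference over the 9 arms was -0.23, -0.32 and -0.28 log2 units in pairs 1, 2 and 3, where the median of all tested probes was 0 in each. In raw signal 6 of 9 arms were lower in all 3 pairs, against 16.4% of all tested probes. The exceptions were miR-17-5p, miR-18a-5p and miR-20a-5p. The raw log2 ratio had a median over the 9 arms of -0.11, -0.059 and -0.083 in pairs 1, 2 and 3, beside -0.031, 0.058 and 0.046 for all tested probes. With the replicate number as a block, 0 of 9 arms passed (smallest limma adjusted p of an arm 0.175). In that fit 6 of 9 arms had an unadjusted limma p under 0.05, against 57 of all 324 tested probes in either direction. By slide position, the median over the 9 arms was -0.31 between the arrays at positions 2 and 1, a single array of each group, and -0.19 when only positions 4 and 3 were fitted.

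**Figure D2:**
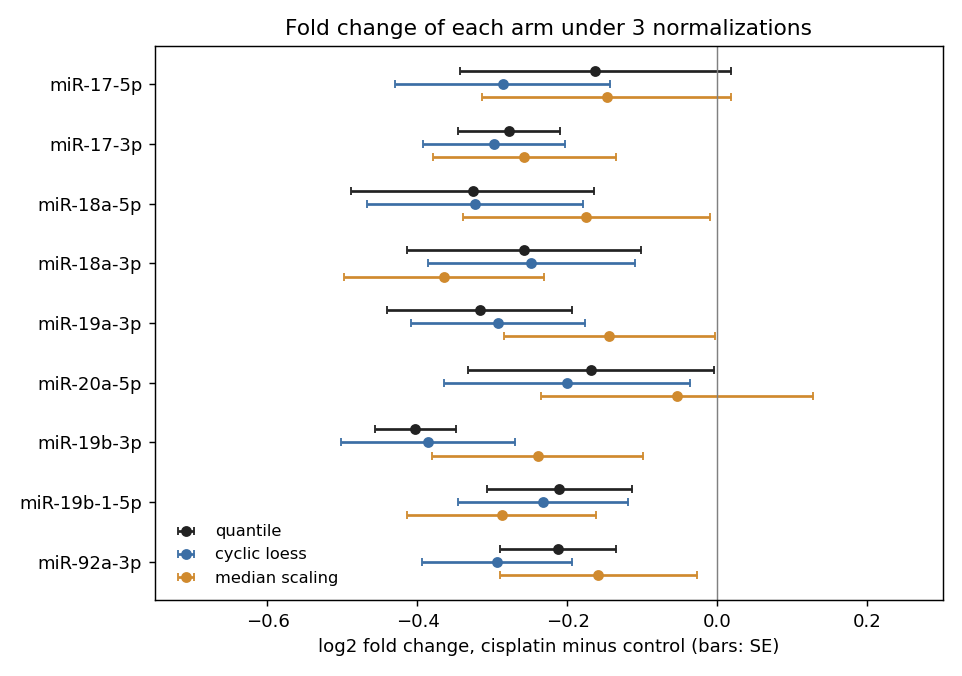
Log2 fold change of each arm, cisplatin minus control, under quantile normalization, cyclic loess and median scaling of the arrays (bars: SE of the limma fit). All values are below 0, and the order of the arms differs between the normalizations.

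How the arms ranked among themselves depended on the normalization. Under quantile normalization miR-19b-3p (-0.40) was lowest, followed by miR-18a-5p (-0.33) and miR-19a-3p (-0.32). Under cyclic loess miR-19b-3p (-0.39) and miR-18a-5p (-0.32) were again lowest, and miR-17-3p, miR-92a-3p, miR-19a-3p and miR-17-5p lay together between -0.30 and -0.29. Under median scaling, which shifts each array by a constant, the lowest were the dim arms miR-18a-3p (-0.37) and miR-19b-1-5p (-0.29), and miR-20a-5p stood at -0.054. The 3 arms that were lowest under quantile normalization stood nearer 0 there, with miR-19b-3p at -0.24, miR-18a-5p at -0.17 and miR-19a-3p at -0.14. The SD of the 9 log2 fold changes was 0.080, and their median SE was 0.12. The arms were read on the same arrays, so that SE does not measure the spread between arms. Differences between arms were not tested. Over all 324 tested probes the SD of the log2 fold changes was 0.18.

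Arms of a hairpin can be compared within an array, where a factor common to the array cancels. The 3 hairpins with both arms listed are printed with the arms in capitals, the 5p arm first.
MIR17: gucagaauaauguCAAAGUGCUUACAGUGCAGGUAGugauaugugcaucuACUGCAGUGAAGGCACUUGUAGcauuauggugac
MIR18A: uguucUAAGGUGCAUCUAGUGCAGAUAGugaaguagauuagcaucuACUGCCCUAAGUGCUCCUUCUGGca
MIR19B1: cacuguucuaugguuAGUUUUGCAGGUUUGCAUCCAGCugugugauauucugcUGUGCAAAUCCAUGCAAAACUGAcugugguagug
For miR-17 the 5p minus 3p difference in normalized log2 signal was 3.39, 3.83 and 3.76 on cisplatin arrays, against 3.33, 3.58 and 3.73 on control arrays. It thus averaged 3.66 ± 0.23 after cisplatin and 3.55 ± 0.20 in control cells (SD, n = 3 each), a change of 0.12 (exact two-sided permutation p = 0.5, where 0.1 is the smallest p possible). The difference was larger on the cisplatin array in all 3 same-numbered pairs, and with the pairs kept the exact two-sided sign-flip p was 0.25, the smallest that 3 pairs can give. Neither test could reach 0.05. The change was 0.012 with cyclic loess and 0.021 without background correction, and without 1 array it ran from 0.018 (control replicate 1) to 0.27 (cisplatin replicate 1). The difference measures probes as well as RNA, so only its change between groups can be read. For miR-18a and miR-19b-1 an arm was below the limit on cisplatin replicate 2, so the 6 arrays were not tested unpaired. Without that array the exact permutation p was 0.5 for miR-18a and 0.2 for miR-19b-1. Over the 3 pairs the exact sign-flip p was 1 and 0.5, but these pairs include the array below the limit and are not relied on. With so few arrays none of these tests could reach 0.05. Their 5p minus 3p differences averaged 2.91 ± 0.19 and -3.99 ± 0.11 after cisplatin, against 2.98 ± 0.085 and -4.18 ± 0.14 in control cells (SD, n = 3 each). Without normalization between arrays the change was 0.19 for miR-18a, where it was -0.069 with quantile normalization, and -0.048 for miR-19b-1, where it was 0.19.

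**Figure D3:**
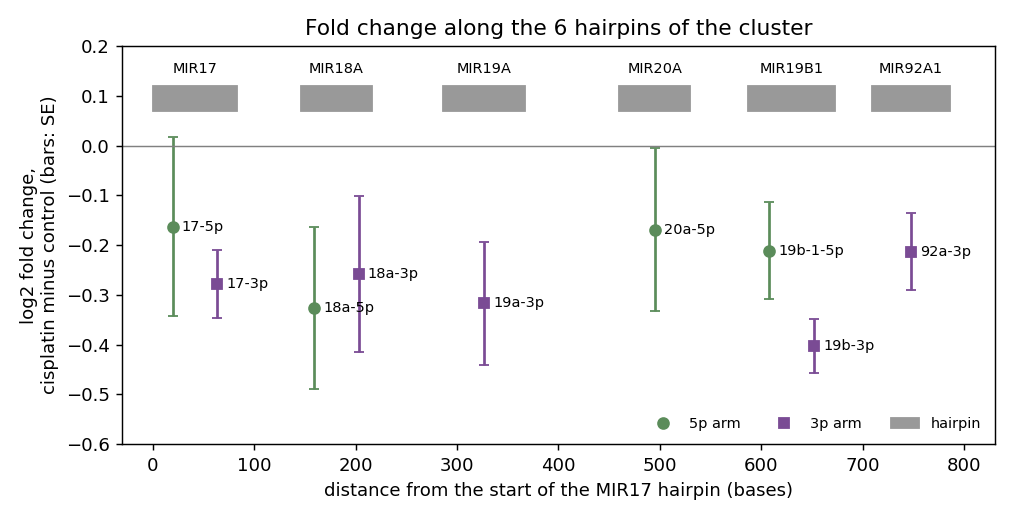
Log2 fold change of each arm, cisplatin minus control (bars: SE), set at its hairpin along the cluster, with distance in bases from the start of MIR17 and 5p arms drawn left of 3p arms. No run of the values from MIR17 to MIR92A1 is visible. The lowest, miR-19b-3p, is drawn at MIR19B1, and miR-92a-3p at MIR92A1, though each is also made from a locus on chromosome X.

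Along the transcript the values were as follows. The arms of the first hairpin had -0.16 and -0.28, and miR-92a-3p, set at the last, had -0.21. The lowest value was that of miR-19b-3p, set at MIR19B1, which starts 587 bases after MIR17. Both miR-19b-3p and miR-92a-3p are also made on chromosome X, so their values cannot be assigned to these hairpins alone. The other arms of these hairpins on the array, miR-19a-5p, miR-20a-3p and miR-92a-1-5p, did not enter the fit. Their raw signal summed to 615, 712 and 688 units on cisplatin arrays, against 627, 703 and 696 on control arrays, close to the blank-spot limit for each.

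The cluster has paralogues that share its seeds, on chromosome X (miR-106a to miR-363) and on chromosome 7 (miR-106b to miR-25). The chromosome X arms nearest in sequence to listed arms are printed with the seed in capitals.
miR-106a-5p: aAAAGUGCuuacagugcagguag
miR-20b-5p: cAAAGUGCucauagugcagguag
miR-18b-5p: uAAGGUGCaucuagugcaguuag
miR-17-5p differs from miR-106a-5p by C1A, miR-20a-5p from miR-20b-5p by U1C and U10C, and miR-18a-5p from miR-18b-5p by A20U. Besides miR-19b-3p and miR-92a-3p, which both clusters make, the array held 10 arms of the chromosome X cluster. Of these 10 arms 3 entered the fit, and 0 of 3 passed. Their log2 fold changes were -0.10 for miR-106a-5p (SE 0.096), -0.27 for miR-20b-5p (SE 0.041, limma adjusted p = 0.0909) and -0.32 for miR-18b-5p (SE 0.075, limma adjusted p = 0.129). The value of miR-18b-5p lay within 0.01 of that of miR-18a-5p. miR-20b-5p, like miR-19b-3p, took a single value of 11.22 on all 3 control arrays, so its SE is too small as well.

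Of 6 arms of the chromosome 7 cluster 4 entered the fit and 0 passed. Their log2 fold changes ran from -0.20 to -0.058, with -0.10 as the median. The lowest was miR-106b-3p, which lay near the limit at 226 to 276 raw units. It was above the limit on 2 of 3 cisplatin and 3 of 3 control arrays, so it entered through the control arrays alone. The arms above the limit on all 6 arrays ran from -0.14 (miR-93-5p) to -0.058. In raw signal miR-106b-5p was higher after cisplatin in all 3 pairs, with 1937, 2583 and 2635 units on cisplatin arrays, against 1750, 2119 and 2270 on control arrays. In normalized signal it stood at -0.058 (SE 0.046, limma adjusted p = 0.667). It shares its seed with miR-17-5p, whose raw signal was lower after cisplatin in 2 of 3 pairs. miR-93-5p and miR-25-3p were also higher in raw signal in all 3 pairs, while miR-106b-3p was lower in all 3. The difference between the clusters was not tested.

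Seeds were compared only for the 1716 of 2042 array miRNA names that matched a RefSeq mature sequence, so the counts are minimums. Outside the 9 listed arms, 5 of these miRNAs had AAAGUGC, 2 had AAGGUGC, 5 had AUUGCAC and 2 had GUUUUGC. The seeds of miR-19a-3p, miR-17-3p and miR-18a-3p were found in 0 of them. Of these relatives, 8 entered the fit, all with negative values, where 52.2% of all tested probes were negative. The highest, miR-92b-3p at -0.040 (SE 0.077), lies outside the paralogue clusters. So does miR-32-5p, which was above the limit on 0 of 3 cisplatin arrays and 3 of 3 control arrays, so that its signal after cisplatin is only a bound. Its entry through the control arrays alone favours a negative value. The listed arms of the same seeds lay from -0.33 to -0.16.

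**Figure D4:**
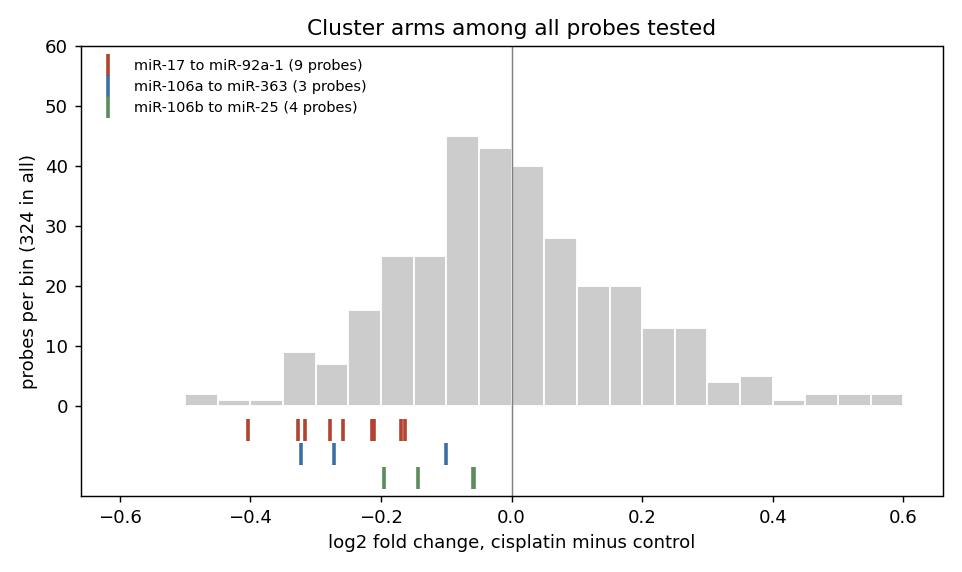
Histogram of the log2 fold change, cisplatin minus control, of all 324 tested probes, with ticks under it for the 9 cluster arms, 3 arms of the miR-106a to miR-363 cluster and 4 arms of the miR-106b to miR-25 cluster. The 9 ticks lie between -0.40 and -0.16, left of the centre of the histogram and inside its range.

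The probes nearest in pattern to the cluster were found by the root mean square distance, over the 6 arrays, between a probe's normalized log2 signal centred on its own mean and the centred mean of the 9 arms. That mean profile was -0.25, -0.054 and -0.086 on cisplatin arrays 1, 2 and 3, against -0.030, 0.22 and 0.20 on control arrays 1, 2 and 3. The 5 nearest probes were miR-320a (distance 0.053, log2 fold change -0.25), miR-4497 (0.067, -0.17), miR-3648 (0.073, -0.24), miR-422a (0.074, -0.18) and miR-130b-3p (0.080, -0.21). The distances of the 9 arms themselves ran from 0.065 for miR-19a-3p to 0.15 for miR-20a-5p. These 5 probes of other loci thus lay as near to the mean profile as its own arms did. They were picked as the nearest of all other tested probes, and the arms themselves enter the mean. How particular the profile is to the cluster was therefore not tested.

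**Figure D5:**
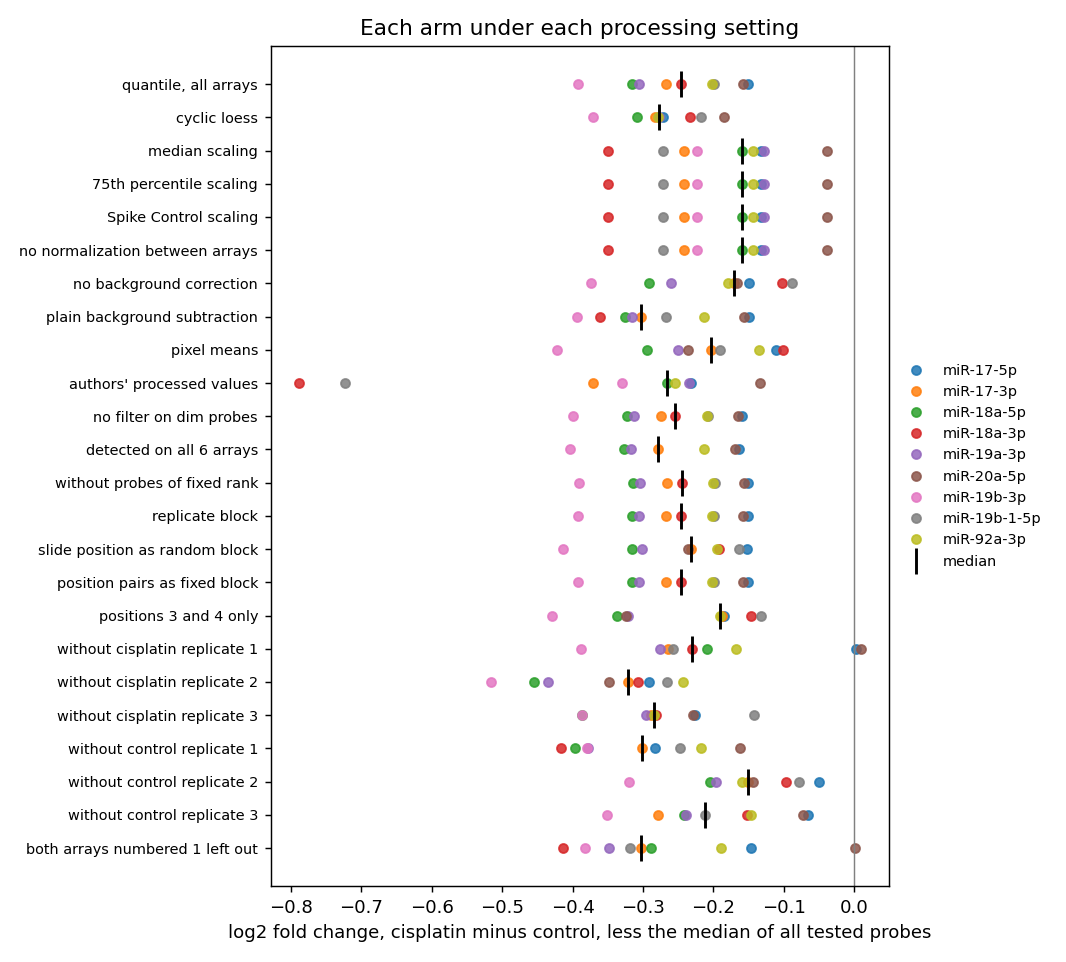
Log2 fold change of each arm, cisplatin minus control, less the median of all tested probes, under quantile normalization and 23 other settings (rows), with the median of the arms as a black line. The median lies left of 0 in all rows. miR-20a-5p is the arm nearest to 0 in the 4 rows of scaling by a constant or none, which are alike by construction.

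The direction of the arms was examined under 23 other settings. Less the median of all tested probes, the median of the arms lay between -0.32 and -0.15 in all of them. These settings are not separate checks. The 4 of scaling by a constant or none give the same value (-0.16) by construction. A fixed block, or a change only in which probes were tested, leaves the log2 fold change of an arm as it was. Less the same shift all arms were negative except without cisplatin replicate 1, where miR-17-5p and miR-20a-5p were above 0 and 7 of 9 negative, and with both arrays numbered 1 left out, where 8 of 9 were negative. Before that shift is taken off, 8 of the 9 arms were negative throughout, and miR-20a-5p was positive under 4 settings, with 0.058 under scaling by the 75th percentile. miR-19b-3p passed without background correction (-0.38, limma adjusted p = 0.0223), and 3 arms passed with slide position as a random block, a fit whose within-position correlation was negative (-0.62) and which is not relied on. In the other settings 0 arms passed. With the authors' processed values the dim arms miR-18a-3p and miR-19b-1-5p stood lowest, at -0.65 and -0.58.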

How the data were processed

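The members and lists were chosen with earlier results of these data known. Per the file headers, the deposited scanner files hold linear intensity values, pixel medians and means for a spot and its surroundings, in columns named for a green laser line. The labels give a red dye, Hy5, and the scanner is not given in the sources used here. Of the 3200 spots per array, 0 carried a non-zero quality code. The authors' deposited value table, also linear intensity with a median of 31 on each array, equals the foreground minus the 5% trimmed mean of the blank spots, divided by 1 factor per array, and was used as an alternative.

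Background was corrected in limma 3.58.1 (R 4.3.3) by normexp with an offset of 50, from the medians. Quantile normalization over 2019 human probes and log2 followed. A probe was tested if it passed the blank-spot limit (mean + 2 SD) on all 3 arrays of at least 1 group. The limma fit had 4 residual and 1.52 prior degrees of freedom (lmFit, eBayes), with Benjamini-Hochberg adjustment over 324 probes. The steps were tested on simulated data. Same-numbered samples deviated together (correlations of 0.44, 0.24 and 0.20), and the numbers were taken to pair them. For cisplatin replicate 2 the correlation with control replicate 3 was 0.23, so numbers 2 and 3 are not clearly told apart. The labels give the numbers and state no pairing. Named are the 9 arms, the other arms of their hairpins, the paralogue arms, array miRNAs of the same seed, and the 5 probes nearest in pattern. Of 2042 miRNA names on the array, 1716 matched a RefSeq mature sequence. Figures were drawn with matplotlib 3.10.9.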

Additional observations from a re-analysis of the deposited data

How the results depend on the processing

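The number of probes that passed was 1 of 324, and 0 of them was a cluster arm. It was 4 with cyclic loess and with median scaling, 3 with 75th percentile scaling and without background correction, and 47 with slide position as a random block. It was 0 with Spike Control scaling, without normalization between arrays, with pixel means, with the authors' processed values, without a filter on dim probes, for probes detected on all 6 arrays, with the replicate block, at positions 3 and 4 only, and in each fit that left out 1 array. In these limma fits 13 to 97 probes had an unadjusted p under 0.05. The median of the arms was -0.26. It was -0.17 with median scaling, -0.063 with 75th percentile scaling, -0.088 without normalization, -0.18 without background correction, -0.32 with plain subtraction, -0.21 with pixel means, -0.12 with the authors' values and -0.19 at positions 3 and 4. Leaving out single arrays gave -0.33 to -0.20. The median of all tested probes moved to 0.14 with the authors' values and to -0.11 with Spike Control scaling. With both arrays numbered 1 left out, a choice made after seeing the data, 0 probes passed and the median of the arms was -0.32. miR-20a-5p stood at 0.058 with 75th percentile scaling, 0.033 without normalization, 0.0073 with the authors' values and 0.0034 without cisplatin replicate 1, and its lowest value in these fits that left out an array was -0.29. The 5p minus 3p change moved to 0.19 for miR-18a and to -0.048 for miR-19b-1 without normalization. When 1 array was left out it ranged from 0.018 to 0.27 for miR-17, from -0.15 to 0.021 for miR-18a and from 0.13 to 0.25 for miR-19b-1. The replicate block changed no call of an arm and cannot change a log2 fold change (smallest adjusted p of an arm 0.175). The cause of these changes was not tested. Signals near the blank-spot limit, those of miR-18a-3p and miR-19b-1-5p, limit what can be read of these arms.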
